A study of Bos taurus with 16 samples.

Results

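The ligands and receptors of the tumor necrosis factor (TNF) superfamily were examined in cells of pregnant cows that had been sorted for CD14 from blood and from endometrium. Members were the array probes whose name, or whose bracketed symbol in the description, starts with TNFSF or TNFRSF and a number, or is FAS, FASLG, LTA or LTB, with CD40 left out. This rule gave 22 of the 21475 probes on the array, which stand for 21 of the 20467 gene or sequence names on it. By their names, 10 of these genes encode ligands and 10 encode receptors. The remaining gene, listed under TNFSF5IP1, is now PSMG2, a proteasome assembly chaperone whose old name holds the letters of the rule, and it is not a member of the family.

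TNF superfamily ligands are mostly trimeric membrane proteins, some of which are shed, and each binds 1 or more receptors on a nearby cell. Receptors with a death domain, such as FAS and TNFRSF1A, can recruit caspases and start apoptosis. Receptors without one, such as TNFRSF9 and CD27, recruit TRAF adaptors and activate NF-kappaB, which supports survival and costimulation of lymphocytes. Macrophages both produce and answer several of these ligands, and the decoy receptor TNFRSF11B binds ligand without signaling.

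The 4 cows were at day 164 (animal 1), day 239 (animal 2), day 242 (animal 3) and day 248 (animal 4) of pregnancy, and each gave both tissues. Cells were sorted by flow cytometry for CD14, a receptor of monocytes and macrophages, from dispersed endometrial stroma and from blood mononuclear cells. Their RNA was amplified, labeled and hybridized to 2-color bovine oligonucleotide arrays, with endometrium and blood of an animal on the same array. Each animal had 2 technical replicates, 1 on each of 2 slides, which were averaged, so n is 4 animals throughout. The dyes of the tissues were swapped between the technical replicates of animals 1, 2 and 4. In animal 3 each tissue had the same dye in both, so averaging does not cancel a dye effect there. Values are the log2 normalized intensities that the authors deposited, here called levels. A log2 ratio is the level in endometrium minus the level in blood of the same animal, and 1 unit is a 2-fold difference.

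Animal 1 stood apart from the others in the markers of the sorted cells. The level of CD14 in blood was 16.12 in animal 1, against 5.76, 8.85 and 6.94 in animals 2, 3 and 4. In endometrium it was 14.04 in animal 1, against 6.07, 9.4999 and 7.38. The T cell gene CD3G ran the other way, at 5.74 in the blood of animal 1 and 13.65, 12.39 and 13.02 in that of animals 2, 3 and 4, and at 8.07, 13.76, 11.07 and 12.76 in endometrium. Over the 12 T and NK cell markers the median level in blood was 5.80 in animal 1 and 11.37 to 13.16 in the others. Over the 7 B cell markers found it was 8.10 in animal 1 and 9.54 to 11.66 in the others. Over 5 monocyte and macrophage markers tested it was 14.73 in animal 1 and 6.67 to 8.85 in the others, and the probe of the sixth, LYZ, was not well above background on any array. Animal 1 also stood apart in other cell types. The log2 summed level of the granulocyte list in blood was 17.87 in animal 1 and 11.11 to 12.56 in the others. For the stromal list in endometrium it was 17.68 in animal 1 and 7.59 to 12.29 in the others. The samples labeled as CD14+ cells of animals 2, 3 and 4 thus held less CD14 and more T cell transcript than those of animal 1 in both tissues, and the mean ratios without animal 1 are given after those of all 4 animals. Day of pregnancy, marker content and animal cannot be told apart, because the other 3 animals were all at a later day.

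**Figure D1:**
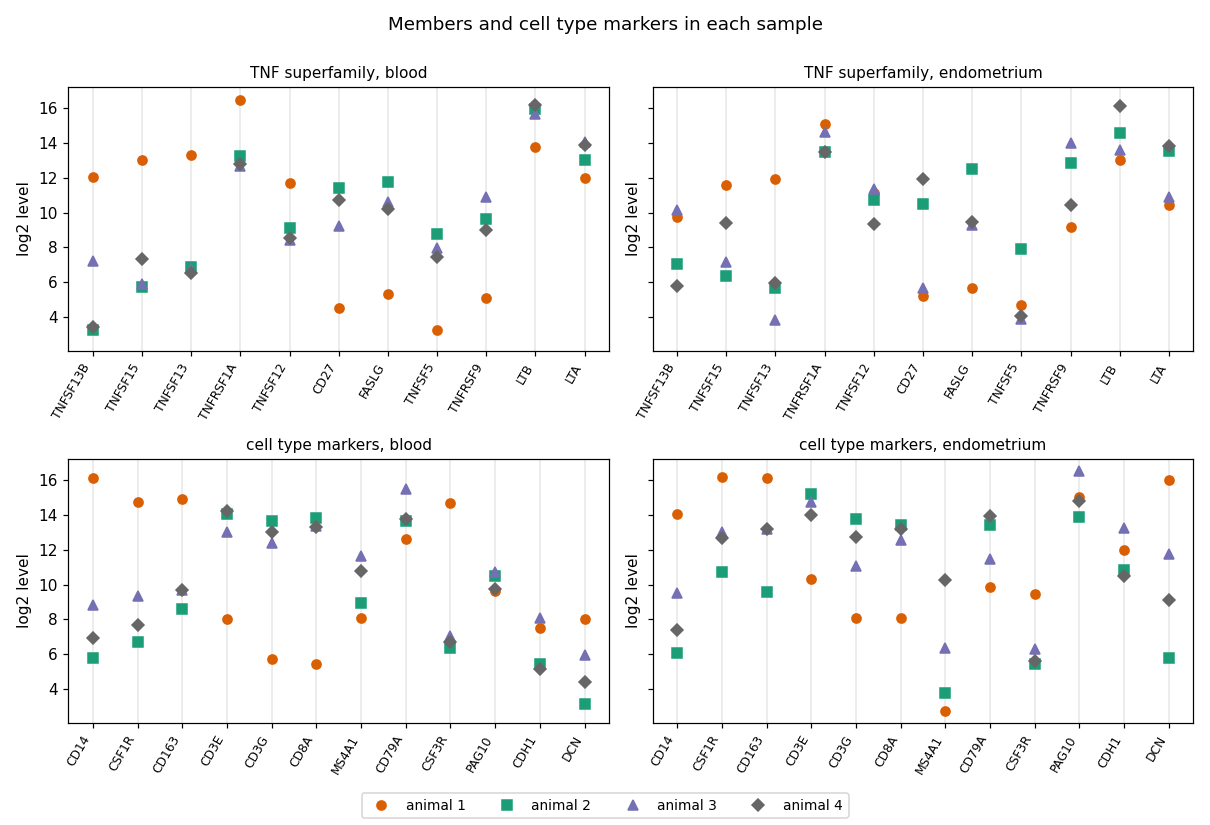
Levels (log2) of 11 TNF superfamily probes, above, and of 12 cell type markers, below, in blood and endometrium, with 1 symbol per animal. The 11 members shown are from the 12 of 20 tested probes whose blood level in animal 1 lay over 2-fold beyond the other 3. They lie apart in blood by this choice, and the remaining tested probes are not shown. In blood, CD14 was 16.12 in animal 1 against 5.76 to 8.85, and CD3G 5.74 against 12.39 to 13.65.

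Endometrial samples also carried transcripts of other cells. Of 9 genes tested from the trophoblast list, 8 were upregulated in endometrium, and so were 6 of 8 epithelial genes and 2 of 5 stromal genes. The criteria were an adjusted p not above 0.05 and more than a 2-fold difference (limma). The remaining entry of the trophoblast list, the probe found under the symbol PAG1, was lower in endometrium, with a mean log2 ratio of -2.10 (SE 0.69, limma, adjusted p = 0.230). Its blood levels were 9.55, 12.77, 11.11 and 10.97 in animals 1 to 4. Whether this probe measures a trophoblast transcript was not tested. Upregulated in blood were 1 of 7 B cell genes and 2 of 6 granulocyte genes. The share called over all probes tested was 1.35%. The log2 summed level of the trophoblast list, with the PAG1 probe included, was 11.44 to 13.18 in blood and 15.56 to 17.29 in endometrium. That of the epithelial list was 10.80 to 12.85 in blood and 15.18 to 18.43 in endometrium. The B cell list went the other way, at 14.45 to 17.11 in blood and 13.37 to 15.82 in endometrium, with a median log2 ratio of -2.57. The granulocyte list lay at 11.11 to 17.87 in blood, with animal 1 highest, and 9.54 to 14.45 in endometrium. The part of these cells in the results below was not tested. In bulk RNA, fewer cells of a type and less RNA per cell cannot be told apart.

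Of the 22 member probes, 20 exceeded background clearly in 4 or more of a tissue's 8 channels and were tested. By the same criteria no member was called, limma's test giving 0 of 20, whereas 1.35% of the 16653 probes tested were called (204 upregulated in endometrium and 20 in blood). When the unadjusted p was taken instead, 5 of 20 members passed, 1 higher in endometrium and 4 higher in blood. Among all probes tested, 7.98% passed in the first direction and 8.05% in the second. The lowest adjusted p among the members was 0.0672, that of TNFRSF9.

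The median log2 ratio of the 20 probes was -0.56, against -0.14 over all probes tested. By animal this median was -0.96, -0.75, -1.22 and -0.05 for animals 1 to 4, against -0.24, -0.10, -0.13 and -0.05 over all probes. The ratio lay below 0 in 14 of the 20 probes. A total of 6 probes were lower in endometrium in 4 of 4 animals, and 1 was higher in 4 of 4, against 15.2% and 9.82% of all probes. The other 13 had ratios of both signs.

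**Figure D2:**
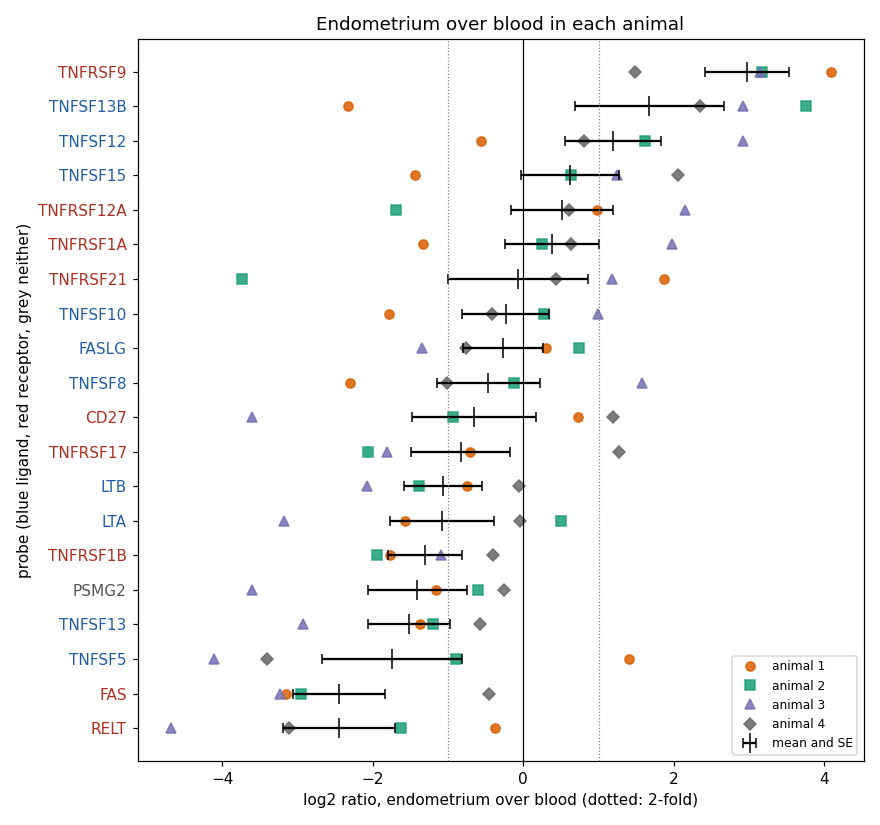
Log2 ratio of endometrium over blood for the 20 tested probes, sorted by their mean, with 1 symbol per animal, the mean as a bar and its standard error by limma as a line. TNFRSF9 is the probe with all 4 animals above 0 (1.48 to 4.08), whereas FAS, RELT, TNFSF13, PSMG2, TNFRSF1B and LTB have all 4 below 0.

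Among the receptors with a death domain, FAS was lower in endometrium. FAS, the receptor through which FASLG triggers apoptosis, is on the array under its older name TNFRSF6. Its level in blood was 10.85, 10.49, 11.13 and 11.31 in animals 1 to 4. In endometrium it was 7.70, 7.53 and 7.89 in animals 1 to 3 and 10.86 in animal 4. The blood levels were close together and exceeded those of endometrium in every animal, but the endometrial level of animal 4 reached the range of blood. The log2 ratios of -3.16, -2.96, -3.24 and -0.46 gave a mean of -2.45 (SE 0.61), a 5.47-fold difference (limma, adjusted p = 0.160). Within the slides the mean ratio was -2.42 and -2.48. Without animal 4 it was -3.12, and without animal 1 it was -2.22 (SE 0.75). The endometrium of animal 4 was also the one with the most MS4A1, a B cell gene, at 10.27 against 2.76, 3.79 and 6.36 in animals 1, 2 and 3. Its median over the B cell list was 10.27, against 6.58 to 7.69. Whether the B cell content has a part in the FAS level was not tested.

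TNFRSF1A, the main receptor of soluble TNF, had no common direction. Its level was 16.44, 13.22, 12.65 and 12.81 in blood and 15.10, 13.47, 14.63 and 13.45 in endometrium of animals 1 to 4. Animal 1 had the highest level in both tissues. The log2 ratio was -1.34 in animal 1 and 0.25, 1.98 and 0.64 in the others, with a mean of 0.38 (SE 0.62, limma, adjusted p = 0.807). TNFRSF21, known as death receptor 6, lay at 13.81 to 15.75 in blood. In endometrium it was 15.68, 15.74 and 15.29 in animals 1, 3 and 4 but 12.004 in animal 2. Its ratio was above 0 in 3 animals and -3.74 in animal 2, and the mean was -0.07 (SE 0.93).

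Receptors that signal through TRAF adaptors differed from each other in direction. TNFRSF9, also called 4-1BB, is a costimulatory receptor of activated T and NK cells that is also found on some myeloid cells. Its level in animals 1 to 4 was 5.08, 9.65, 10.9 and 8.98 in blood and 9.16, 12.83, 14.01 and 10.46 in endometrium. Endometrium exceeded blood in each of the 4 animals, although the lowest levels of endometrium overlapped those of blood. The log2 ratios of 4.08, 3.18, 3.15 and 1.48 gave a mean of 2.97 (SE 0.56), a 7.85-fold difference (limma, adjusted p = 0.0672). The largest, 4.08 in animal 1, rests on a blood signal that was above background in 1 of 2 channels. The mean ratio was 3.07 and 2.87 within the slides. It was 2.60 (SE 0.64) without animal 1. TNFRSF9 was called when a probe had to exceed background in every channel of a tissue (adjusted p = 0.0350, with 2.02% of the probes called) and when the 8 arrays were fitted with a dye term and the animal as a random block (adjusted p = 0.0177, with 1.49% called).

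Of the 12 T and NK cell markers, 9 had a mean log2 ratio above 0 and 3 below, with a median of 0.27. The ratios ran from -0.89 for NCR1, -0.74 for LCK and -0.53 for CD3D to 1.62 for NKG7, 2.05 for CD2 and 2.14 for KLRB1. None of the 12 was called by limma. Those last 3 passed by the unadjusted p with more than a 2-fold difference, against 7.98% of all probes in this direction. These 3 were higher in endometrium in 4 of 4 animals, as were 9.82% of all probes, and NCR1 was lower in 4 of 4. Whether the cells of these markers have a part in the TNFRSF9 ratio was not tested.

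TNFRSF1B, the second TNF receptor, which has no death domain, was lower in endometrium. Its level in blood was 16.38, 16.75, 16.25 and 16.30, and in endometrium 14.60, 14.80, 15.16 and 15.90. These 8 levels did not overlap between the tissues, as was the case with blood above endometrium for 3.37% of all probes tested. The log2 ratios of -1.77, -1.95, -1.10 and -0.40 gave a mean of -1.30 (SE 0.49), a 2.47-fold difference (limma, adjusted p = 0.271). Blood levels of TNFRSF1B spanned 0.50, a range that 92.0% of all probes tested equaled or exceeded. The blood of animal 1 did not stand apart for TNFRSF1B.

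RELT, an orphan receptor of lymphoid tissue that the array lists as TNFRSF19L, was lower in endometrium by a similar mean as FAS. Its level in blood was 11.10, 9.15, 10.27 and 10.25, and in endometrium 10.72, 7.52, 5.58 and 7.14. The log2 ratios of -0.38, -1.63, -4.69 and -3.11 had a mean of -2.45 (SE 0.75, limma, adjusted p = 0.213), a 5.48-fold difference. Both genes were lower in 4 of 4 animals, with the smallest difference in animal 1 for RELT and in animal 4 for FAS. The RELT probe was above background in 1 of 2 channels in the endometrium of animal 3, its lowest level. Without animal 1 the mean RELT ratio was -3.14 (SE 0.75).

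CD27, a costimulatory receptor of T and B cells listed as TNFRSF7, set animal 1 apart in blood. Its level was 4.50 in the blood of animal 1 and 11.42, 9.24 and 10.74 in that of animals 2, 3 and 4. In endometrium it was 5.22, 10.48, 5.64 and 11.94. CD27 was above background in 1 of 2 channels in the blood of animal 1 and in 0 of 2 in the endometrium of animal 3. The log2 ratios of 0.72, -0.93, -3.60 and 1.19 had no common sign, and their mean was -0.65 (SE 0.83). The ligand TNFSF5, now named CD40LG, is presented by activated helper T cells to B cells and macrophages. TNFSF5 had levels of 3.26, 8.77, 7.97 and 7.44 in blood and 4.67, 7.88, 3.87 and 4.04 in endometrium. It too was lowest in the blood of animal 1. Its ratio was 1.41 in animal 1 and -0.89, -4.11 and -3.40 in the others, with a mean of -1.75 (SE 0.93, limma, adjusted p = 0.400). TNFSF5 was at background in the blood of animal 1 and in the endometrium of animals 3 and 4, so the size of these ratios is not well measured. The array's oligonucleotides for these lymphocyte genes are shown because their signal is what set animal 1 apart. They are written 5′ to 3′ in lower case with no base marked.
CD27: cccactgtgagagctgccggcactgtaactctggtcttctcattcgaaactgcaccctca
TNFSF5: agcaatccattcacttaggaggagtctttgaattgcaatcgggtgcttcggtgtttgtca

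Among the remaining receptors, TNFRSF12A, the receptor of TNFSF12, lay between 7.08 and 9.73 in blood and between 6.72 and 11.88 in endometrium, with a mean log2 ratio of 0.51 (SE 0.68). The probe listed as TNFRSF17, the name of a plasma cell receptor of TNFSF13 and TNFSF13B, carries a gene identifier that now belongs to SNX29. Those genes lie in the same region of the ARS-UCD2.0 assembly with 1 protein-coding gene between them, and which of them the probe measures is uncertain. Its level was 5.66 to 7.502 in blood and 3.85 to 7.74 in endometrium, with a mean ratio of -0.83 (SE 0.66). It was not above background in the endometrium of animals 2 and 3. TNFRSF11B, the decoy receptor called osteoprotegerin, exceeded background clearly in 0 of 8 channels from blood and 1 of 8 from endometrium. Both tissues were at background for TNFRSF11B, so no fold change is given.

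**Figure D3:**
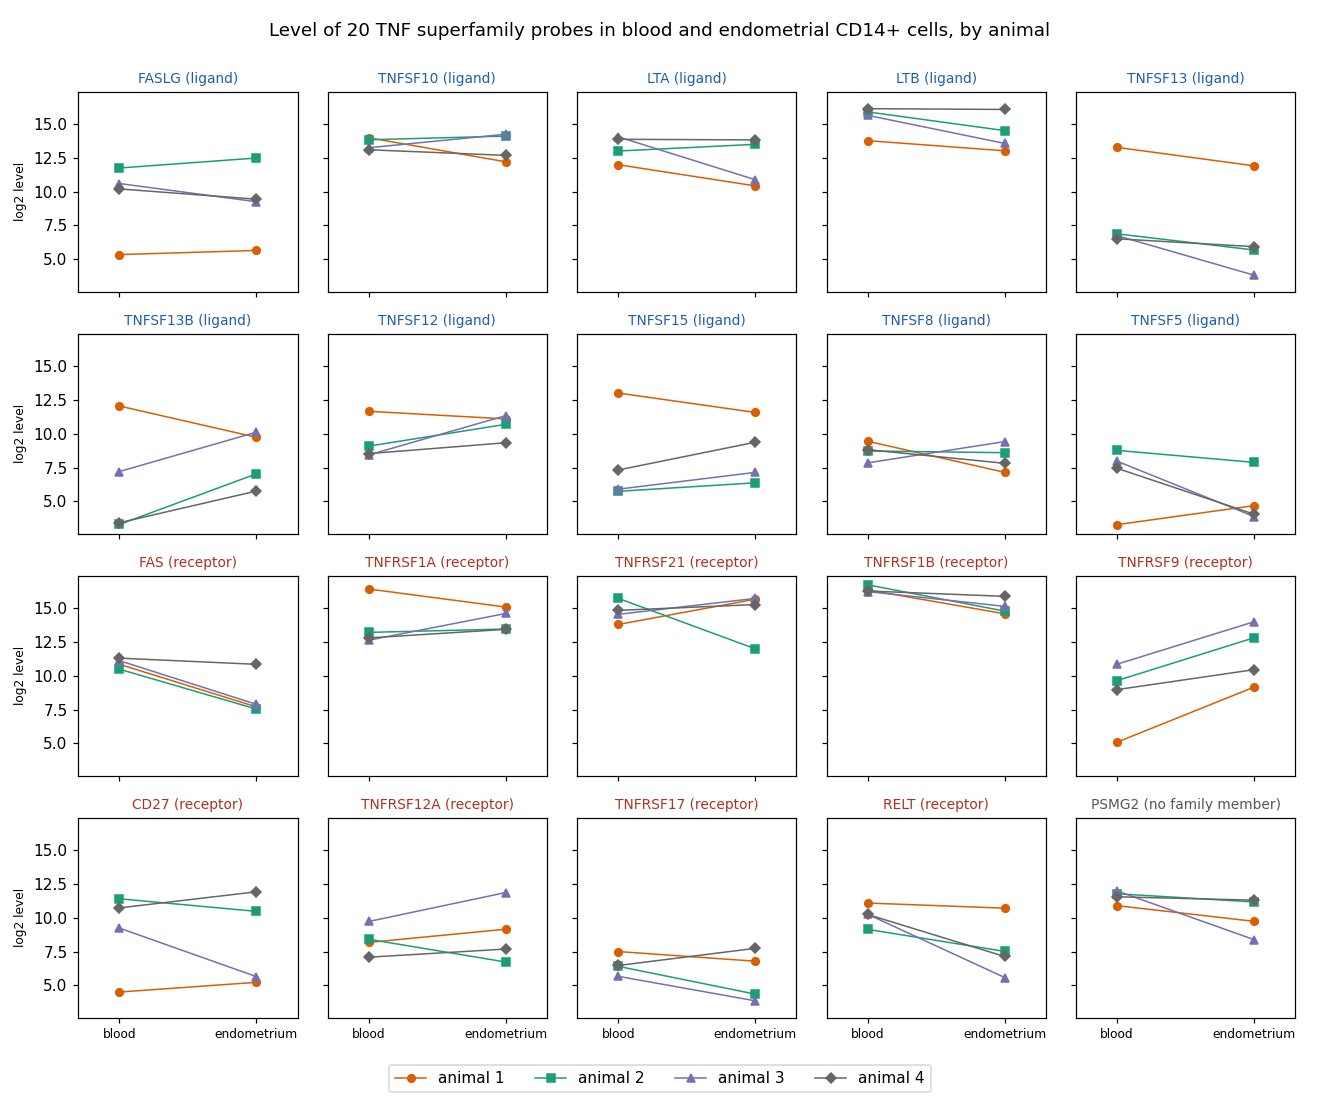
Level (log2) of the 20 tested probes in blood and endometrium, with a line joining the tissues of each animal. Titles give the role of each gene. FAS is lower in the endometrium of animals 1, 2 and 3 (7.53 to 7.89) than in their blood (10.49 to 11.13), TNFRSF9 is higher in endometrium in all 4 animals, and TNFSF13 lies far higher in animal 1 than in the others in both tissues.

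Ligands that induce apoptosis did not have a common direction. FASLG, which cytotoxic T and NK cells carry, had levels of 5.34, 11.76, 10.61 and 10.21 in blood and 5.65, 12.50, 9.26 and 9.45 in endometrium. Animal 1 was lowest in both tissues. The log2 ratios of 0.31, 0.74, -1.35 and -0.76 averaged -0.27 (SE 0.53, limma, adjusted p = 0.851). TNFSF10, known as TRAIL, was one of the most even ligands in blood, at 14.004, 13.86, 13.27 and 13.11. In endometrium it was 12.22, 14.13, 14.27 and 12.70. Its ratio was -1.78, 0.27, 1.00 and -0.42, with a mean of -0.23 (SE 0.58, limma, adjusted p = 0.884). No probe for a TNFRSF10 receptor was among the members.

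LTA and LTB, which form the lymphotoxins made mainly by lymphocytes, were both lower in endometrium on average. LTB was at 13.79, 15.92, 15.67 and 16.16 in blood and 13.04, 14.54, 13.59 and 16.10 in endometrium. Its ratio lay below 0 in each of the 4 animals (-0.75, -1.39, -2.08 and -0.06), and the groups overlapped. The mean log2 ratio was -1.07 (SE 0.52, limma, adjusted p = 0.357). The brighter LTA probe was at 12.01, 13.02, 14.07 and 13.89 in blood and 10.44, 13.52, 10.89 and 13.85 in endometrium. Its ratio was -1.57, 0.50, -3.18 and -0.05, with a mean of -1.08 (SE 0.69, limma, adjusted p = 0.481). The other LTA probe was well above background in only 2 of 8 channels of each tissue and was not tested. Its oligonucleotide is shown as the case where probes of a gene disagree in signal.
LTA, dimmer probe: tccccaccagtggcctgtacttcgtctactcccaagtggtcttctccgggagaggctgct

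In the ARS-UCD2.0 assembly LTA, TNF and LTB are neighbors with no protein-coding gene between them. TNF, the founding cytokine of the family, has no number in its symbol and so falls outside the naming rule. Its ratio was 0.47, 1.13, 0.78 and 0.02 in animals 1 to 4, with a mean of 0.60 (SE 0.46, limma, adjusted p = 0.555). TNF lay above 0 and LTB below 0 in each animal, though by only 0.02 and -0.06 in animal 4.

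TNFSF13, TNFSF13B and TNFSF15 were all higher in the blood of animal 1 than in that of the others. TNFSF13, or APRIL, acts on B cells and plasma cells. Its level was 13.29 in the blood of animal 1 and 6.88, 6.75 and 6.51 in that of the others, and in endometrium it was 11.9, 5.68, 3.81 and 5.93. Whatever the level, its endometrial level was the lower one in each of the 4 animals. The log2 ratios were -1.37, -1.20, -2.93 and -0.58, with a mean of -1.52 (SE 0.54, limma, adjusted p = 0.253), a 2.87-fold difference. Its probe was at background in the endometrium of animal 3. The technical replicates of TNFSF13 differed by up to 2.36, the most of any tested member, and its mean ratio was -1.82 and -1.22 within the slides.

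TNFSF13B, or BAFF, a survival factor of B cells made by myeloid cells, gave the opposite sign in animal 1. Its level in blood was 12.06, 3.28, 7.20 and 3.41, and in endometrium 9.74, 7.03, 10.12 and 5.75. In blood it exceeded background clearly in 4 of 8 channels and was at background in animals 2 and 4, so the ratios of these animals rest on a blood signal at background. The log2 ratio was -2.32 in animal 1 and 3.75, 2.92 and 2.35 in animals 2 to 4. The mean was 1.67 (SE 0.99, limma, adjusted p = 0.443) with animal 1 and 3.01 (SE 0.59, adjusted p = 0.133) without it. From scanner intensities corrected by normexp the mean was 0.12 (SE 0.60).

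TNFSF12, or TWEAK, and TNFSF15, a ligand that endothelial and myeloid cells produce, had the same arrangement as TNFSF13B. The TNFSF12 probe was at 11.67, 9.09, 8.44 and 8.53 in blood and 11.10, 10.71, 11.35 and 9.34 in endometrium, and its ratio was -0.56 in animal 1 and 1.62, 2.92 and 0.80 in the others. TNFSF15 was at 13.02, 5.74, 5.89 and 7.32 in blood and 11.59, 6.36, 7.14 and 9.38 in endometrium, and its ratio was -1.44 in animal 1 and 0.63, 1.24 and 2.06 in the others. The mean ratios were 1.19 (SE 0.64) and 0.62 (SE 0.65). TNFSF8, the CD30 ligand, whose probe the array lists as TNFRSF8, lay between 7.84 and 9.45 in blood and between 7.14 and 9.42 in endometrium, with a mean ratio of -0.47 (SE 0.69). TNFSF8 and TNFSF15 are neighbors in the assembly, with no protein-coding gene between them, and they differed in their spread over the 4 blood samples (1.60 and 7.29).

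In blood, 12 of the 20 tested probes lay over 2-fold beyond the range of the other 3 samples in animal 1, 6 of them above and 6 below. The share over all probes tested was 30.8%. The 6 higher ones were TNFSF13B, TNFSF15, TNFSF13, TNFRSF1A, TNFSF12 and the TNFRSF17 probe, and the 6 lower ones were CD27, FASLG, TNFSF5, TNFRSF9, LTB and LTA. Against the median of the other 3 blood samples, TNFSF15 was 140-fold and TNFSF13 93.3-fold higher in animal 1. No such fold is given for TNFSF13B, which was at background in blood of animals 2 and 4, or for CD27, FASLG, TNFRSF9 and TNFSF5, which were above background in 1 or 0 of 2 channels in blood of animal 1. The same count was 2, 2 and 1 of 20 for the blood of animals 2, 3 and 4, against 7.75%, 6.92% and 4.55% of all probes. In endometrium 5 of 20 lay apart in animal 1, against 19.2% of all probes. The endometrium of animals 2, 3 and 4 had 3, 5 and 5 of 20, against 11.9%, 24.7% and 16.5%. By this count animal 1 did not stand out in endometrium. TNFSF13 and TNFSF15 were higher, and FASLG and TNFRSF9 lower, in both tissues of animal 1. The monocyte marker CSF1R was likewise higher in the blood of animal 1 (14.73 against 6.67, 9.33 and 7.69), as the plot of members and markers shows. The part of the cell content in these differences was not tested.

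The spread between animals was also compared with that of all probes. The median range over the 4 blood samples was 2.51 for the 20 members and 1.61 for all probes tested. The corresponding values in endometrium were 3.82 and 2.42. Of the members above background in all 8 blood channels, TNFSF15 had the widest range in blood, at 7.29, which 1.54% of all probes equaled or exceeded. TNFRSF1B, FAS and TNFSF10 had the narrowest, at 0.50, 0.82 and 0.89.

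The genes that act with the family were examined as a list of receptors, adaptors, caspases, inhibitors, kinases and shedding proteases. Of 29 with a probe of their own, 27 were tested and 0 were called. By the unadjusted p with more than a 2-fold difference, 1 was higher in endometrium and 3 were lower, together 4 of 27, against 7.98% and 8.05% of all probes in these directions. This share is near that of all probes, and the 4 genes are given as values only. The median log2 ratio was -0.54 and 21 of the 27 ratios were below 0. LTBR, the receptor of the lymphotoxin heterotrimer, had ratios of 0.99, 2.90, 4.92 and 3.39 and a mean of 3.05 (SE 0.68, limma, adjusted p = 0.121). It ran opposite to its ligand LTB in 4 of 4 animals. The ubiquitin-editing inhibitor TNFAIP3 had a mean of -2.48 (SE 0.76), the TRAF-binding protein TANK -2.39 (SE 0.66) and the adaptor TRAF3 -2.13 (SE 0.54), with adjusted p values of 0.214, 0.186 and 0.162 by limma. TANK and TRAF3 were lower in endometrium in 4 of 4 animals and TNFAIP3 in 3 of 4.

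Leaving out animal 1 left 3 animals with lower CD14 and called 0 of the 20 members by limma, with 0.384% of all probes called. TNFSF13B, TNFSF12, TNFSF5, FAS, TNFRSF9 and RELT then had an unadjusted p not above 0.05 (limma) and more than a 2-fold difference. The share of all probes passing this is not given, so these names are no result about the members. TNFSF13B was at background in the blood of animals 2 and 4, and TNFSF5 in the endometrium of animals 3 and 4. The mean log2 ratio moved by over 1.5 times for several members. It was -2.80 (SE 0.79) for TNFSF5, 1.31 (SE 0.60) for TNFSF15, 0.96 (SE 0.62) for TNFRSF1A, -1.11 (SE 0.97) for CD27, -0.46 (SE 0.65) for FASLG and -0.71 (SE 1.04) for TNFRSF21. It changed sign for TNFSF10, at 0.29 (SE 0.59), and TNFSF8, at 0.15 (SE 0.70). For the others it was 1.78 (SE 0.65) for TNFSF12, -1.57 (SE 0.68) for TNFSF13, -1.18 (SE 0.64) for LTB, -0.91 (SE 0.86) for LTA, -1.15 (SE 0.60) for TNFRSF1B, 0.36 (SE 0.85) for TNFRSF12A, -0.87 (SE 0.83) for the TNFRSF17 probe and -1.49 (SE 0.82) for PSMG2.

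Ratios were also computed from the scanner intensities, with normexp background correction, loess and quantile normalization. The normexp step added an offset of 50 to every intensity. The sign of the mean ratio was the same in 20 of 20 probes, and none was called there either (0.0661% of all probes were, 11 of 16653). Ratios of bright probes were close, such as -1.30 in both for TNFRSF1B and -1.07 and -1.04 for LTB. Those of dimmer probes, where the added offset weighs most, were smaller from scanner intensities. They were -0.54 in place of -1.52 for TNFSF13, -0.51 in place of -1.75 for TNFSF5 and -1.41 in place of -2.45 for RELT. For TNFRSF9 and FAS the values were 2.14 (SE 0.38) and -1.77 (SE 0.40).

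**Figure D4:**
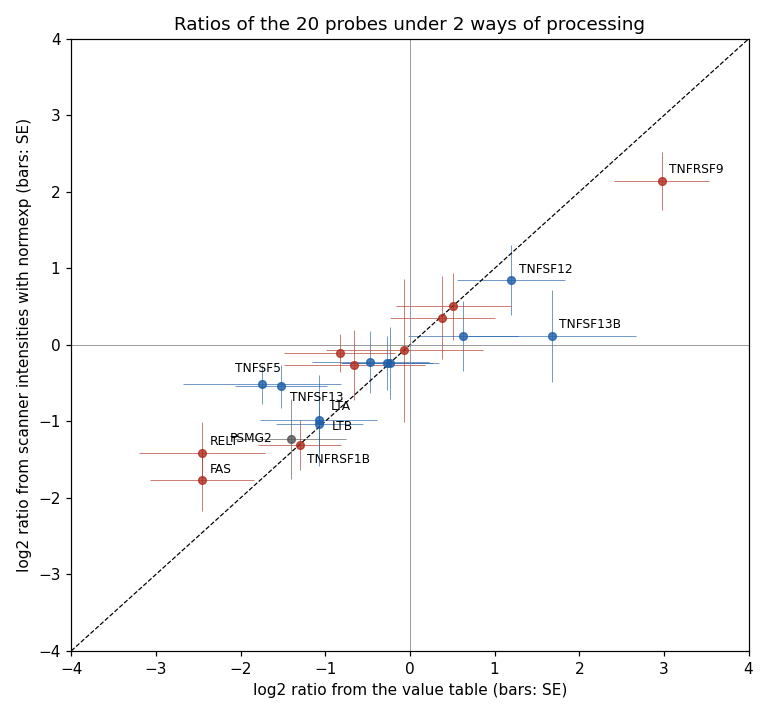
Mean log2 ratio of the 20 tested probes from the value table (x axis) and from the scanner intensities with normexp correction (y axis). Bars are standard errors by limma and the dashed line is equality, with ligands in blue, receptors in red and PSMG2 in grey. All 20 points keep their sign, and TNFSF13B (1.67 and 0.12) and TNFSF13 (-1.52 and -0.54) lie among the farthest from the line.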

How the data were processed

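The authors' value table holds 16 columns of log2 normalized intensity, 1 per tissue, animal and technical replicate. It was used because the rule for the members names it and its columns carry their tissue and animal. The authors' scanner files, made with Agilent Feature Extraction 9.5 per the labels (10.5.1.1 per the file headers), give median intensity of spot and background and other quality columns such as spot flags, without normalization, and a processed intensity. For every column, the processed intensities of a scanner file were replaced, by rank, with the sorted values of the value table. Their probe means then matched the column, within 0.001, for the file that GEO lists under the animal's other technical replicate. Scanner data were assigned accordingly. Of 42990 spots that are not controls, 21475 probes were averaged. In each channel 65.2% to 82.9% of spots were well above background and 0 were saturated. The number of animals, 4, limits the precision.

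The log2 ratio per animal was tested against 0 with limma 3.58.1 in R 4.3.3 (lmFit, eBayes), with p values adjusted by Benjamini and Hochberg over the 16653 probes that exceeded background clearly in 4 or more of a tissue's 8 channels. Standard errors (SE) are those of limma, which pools the spread over probes, and not those of the 4 ratios alone. The design pairs the tissues of an animal by its number in the labels. The deviations of an animal's tissues correlated at 0.628, 0.372, 0.239 and 0.452. With 4 pairs an exact permutation test of a single probe cannot go below p = 0.125, so none is given.

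Names come from the files, updated by accession (9 member probes) or gene identifier (12) through a RefSeq gene table of ARS-UCD2.0, and 1 member probe, TNFSF12, was not matched. The brightest probe stands for a gene. All members are named. Given in full are those past 2-fold with an unadjusted p not above 0.05, and also FAS, FASLG, TNFRSF1A, TNFRSF1B, TNFRSF9, TNFSF10, TNFSF13, TNFSF13B, LTA and LTB. The members, lists and rules were chosen with earlier results of these data known. The methods' test was taken as a paired test of each probe without pooling of spread. Alternatives changed the normalization, filter, pairing, technical replicates, dye term, test, threshold and animals. The probe of TNF and the marker genes named were chosen after their values were seen.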

Additional observations from a re-analysis of the deposited data

Results flagged for a closer look

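In sets of 4 animals, 5 of the 60 sets of blood levels, endometrial levels and ratios of the tested members had 1 animal far from the others, where chance gives about 1 in 20 sets. Over all probes the shares were 8.95%, 5.18% and 5.26%. In blood, animal 1 stood far above the others for TNFSF13 (13.29 against 6.51 to 6.88) and TNFRSF1A (16.44 against 12.65 to 13.22). In endometrium, FAS was far higher in animal 4 (10.86 against 7.53 to 7.89) and TNFRSF21 far lower in animal 2 (12.004 against 15.29 to 15.74). The FAS ratio of animal 4 (-0.46) was far from the -3.24 to -2.96 of the others.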

How the results depend on the processing

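No member was called under most alternatives. TNFRSF9 was the exception, being called with the stricter filter on dim probes and with a dye term and random block (1 member in each), over a range of adjusted p from 0.0177 to 0.529 in all its alternatives. By the methods' test without adjustment, 3 of 20 members (TNFRSF9, TNFRSF1B and FAS) and 2 of 27 genes acting with them passed with more than a 2-fold difference. The share of all probes passing was 7.38%. After adjustment 0 passed. With the dye term, 1 gene acting with the family, LTBR, was called, against 1.49% of all probes. The count over all probes, 224, was 11 with normexp, 123 with no filter, 58 when the adjusted p had to reach 0.01, 0 by the methods' test (1229 unadjusted) and 38 without the replicate block; leaving out 1 animal gave 0 to 180, with 64 without animal 1, 95 without animal 3 and 0 without animal 4. For the members and the genes acting with them, leaving out 1 animal gave 0 each time. With 1 animal left out, the ratio of FASLG ranged from -0.60 to 0.10 (reversed without animal 3), that of TNFSF10 from -0.64 to 0.29 (without animal 1) and that of TNFRSF1A from -0.15 (without animal 3) to 0.96; the cause was not tested. The other members given in full kept their sign in every alternative. Without the replicate block no member was called. Signals near background, as for TNFRSF11B and the dimmer LTA probe, allowed no ratio.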
